A study of Mus musculus with 12 samples.

Results

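Genes of hnRNP proteins, SR proteins and related splicing regulators were examined in cultured mouse hippocampal neurons, in RNA recovered by pulldown of the long noncoding RNA Gas5. The set was drawn by name from the total RNA table. It took in every row named Hnrnp, Srsf with a number, Srrm1 to Srrm4, Ptbp1 to Ptbp3, Mbnl1 to Mbnl3, Celf1 to Celf6 or Puf60 that the authors' deposited table classes as protein-coding. This gave 48 of 49489 genes, made up of 20 hnRNP genes, 11 Srsf genes, 4 Srrm genes, 3 Ptbp genes, 3 Mbnl genes, 6 Celf genes and Puf60. A further 2 genes matching the name pattern, Hnrnpa1l2-ps and Hnrnpa1l2-ps2, are processed pseudogenes and were left out. The cultures were made from hippocampi of P0 mice and taken at day 16 in vitro, with no genotype or treatment named in the labels. Total RNA was sequenced from 3 libraries titled antisense and 3 titled sense. Which of the 2 captured Gas5 is not said in the labels. Separate cultures are not named either, so p-values reflect library-to-library spread only, and that spread may be technical.

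The proteins encoded by these genes bind pre-mRNA and set which exons are kept. SR proteins carry a domain rich in arginine and serine, bind mostly exonic enhancers and help to recruit the spliceosome, while many hnRNP proteins and the polypyrimidine tract binding proteins (Ptbp) act as repressors. Muscleblind (Mbnl) and Celf proteins often push the same exons in opposite directions. In the brain, the exchange of Ptbp1 for Ptbp2 and the expression of Srrm4 accompany the shift to neuronal exons.

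Total RNA libraries held 5775052 to 10424167 estimated counts. Gas5 itself took 11.6% ± 2.34 of the counts in antisense and 45.3% ± 12.3 in sense (SD, n = 3 each). Levels are therefore given as CPM (counts scaled to a common library size with edgeR's TMM factors), and each direction is relative to that scale. CPM does not take gene length into account, so levels are compared between libraries and not between genes. Of 13 neuron markers, 12 could be tested and none was at 0 in all libraries. Their summed level was 906 to 1183 CPM in antisense against 1165 to 1478 CPM in sense. Astrocyte markers summed to 1186 to 1482 CPM and 1370 to 1782 CPM, so the cultures also held RNA of glia. In bulk RNA recovered by pulldown, fewer cells of a type, less RNA per cell and less recovery in the pulldown cannot be told apart.

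All 48 splicing regulators passed the filter on low counts, with 20.3 to 4115 counts per library. Between the groups, 47 of them differed by less than 0.5 on the log2 scale. The exception was Mbnl3, which was 2.62-fold higher in sense. A call with at least 2-fold higher sense levels was made for 1 of 48 members (2.08%), against 0.793% of all tested genes and 0.472% of protein-coding genes. In edgeR's quasi-likelihood test with Benjamini-Hochberg adjustment over 20049 genes, 5 of 48 were lower in antisense (Mbnl3, Srsf4, Srrm2, Ptbp1 and Puf60), none was higher and 43 did not pass. Without adjustment 10 of 48 (20.8%) had a p below 0.05, against 32.9% of all tested genes and 25.6% of protein-coding genes. Lower calls made up 10.4% of the set, against 4.35% of all tested genes and 4.78% of 15030 tested protein-coding genes. Higher calls made up 18.2% of all tested genes and 9.66% of protein-coding genes, so that calls in either direction came to 22.6% and 14.4%. The median log2 fold change of the set, antisense minus sense, was -0.14. It was -0.01 over all tested genes and -0.07 over protein-coding genes. The fitted difference was negative for 43 of 48 members (89.6%) and for 60.9% of protein-coding genes. Scaling by library totals alone, Gas5 included, moved the median of the set to 0.58 and that of all genes to 0.70. The 3 antisense libraries all lay below the 3 sense libraries for 15 members (31.3%), against 13.2% of all tested genes and 15.8% of protein-coding ones. They all lay above for 1 member, Celf3, against 23.4% and 14.5%.

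The count of 5 was set against other ways of testing, each followed by the share of all tested genes called in either direction. In the main fit that share was mostly higher calls (18.2% higher, 4.35% lower). It is therefore not a like background for members called lower. DESeq2 called 3 members (19.8% of all genes), limma voom 4 (21.8%) and a minimum count of 50 gave 2 (16.8%). With DESeq2's size factors the count was 5 (22.6%), without a filter 5 (17.1%), with Gas5 left out of the totals 5 (21.3%) and with TMM on protein-coding genes 3 (22%). Without antisense replicate 1, 2 or 3 it was 3 (19.6%), 5 (22%) and 4 (20%). Without sense replicate 1, 2 or 3 it was 2 (19.2%), 6 (24.2%) and 2 (19.3%). Mbnl3 was among the members called each time. Library totals alone gave 29 calls, 28 of them higher in antisense, where 64.2% of all genes were called and 63.9% were higher.

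**Figure D1:**
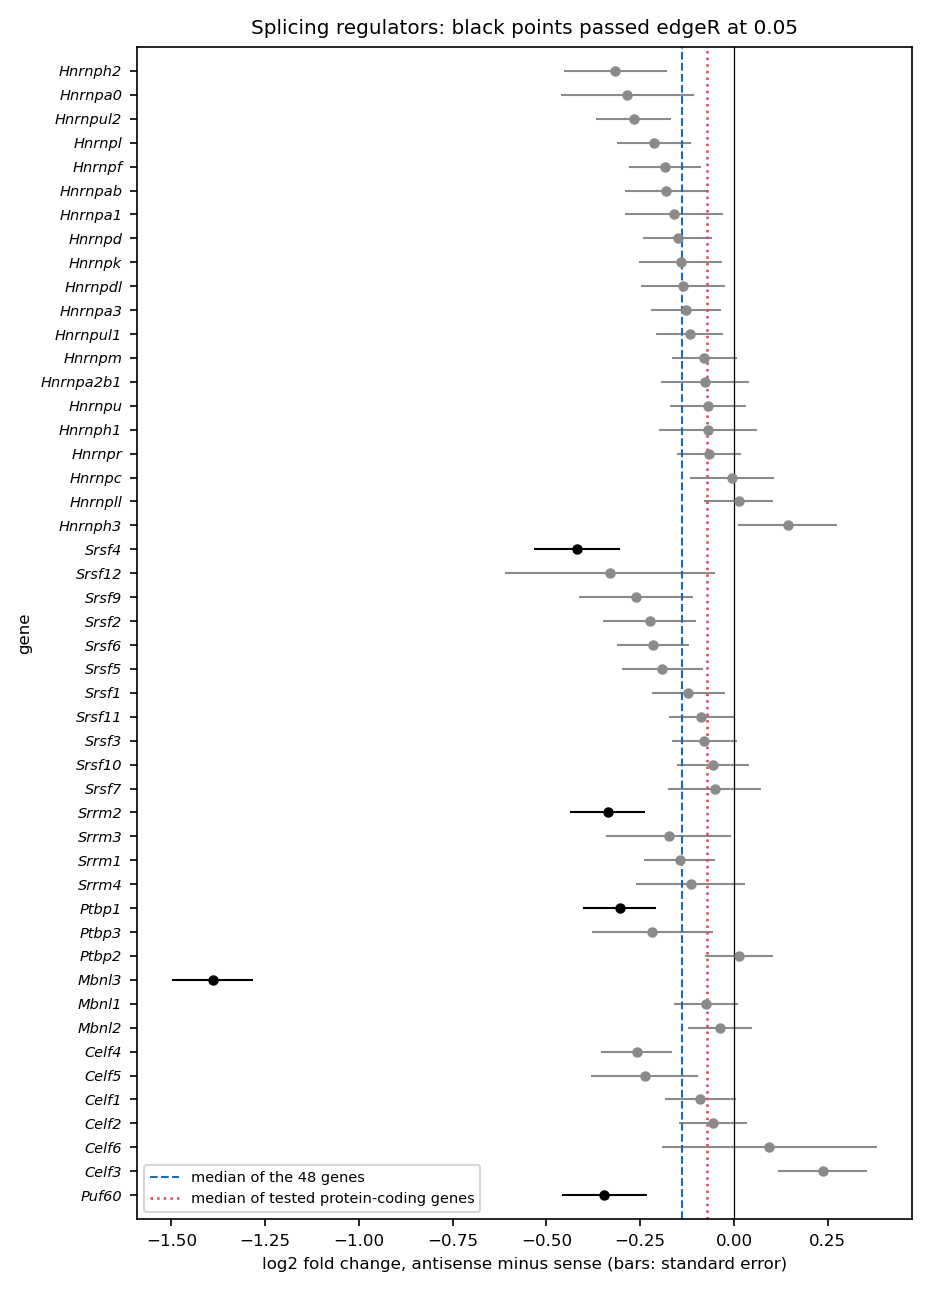
Log2 fold change of each of the 48 genes, antisense minus sense, on the TMM scale, grouped by family, with bars for the standard error from edgeR. Mbnl3 lies apart at -1.39, the other genes lie between -0.42 and 0.24. On library totals alone the median turns from -0.14 to 0.58 while Mbnl3 is at -0.70.

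Mbnl3 had the largest difference of the set. It encodes the third muscleblind protein, a zinc-finger RNA-binding protein whose expression is highest in embryonic tissue and placenta. Its gene lies on chromosome X from 51113494 to 51205990 (GRCm38.p6), and no other gene of the RefSeq table overlaps it. Mbnl3 stood at 28.5, 26.7 and 31.3 CPM in antisense libraries 1 to 3 and at 70.2, 84.1 and 72.4 CPM in sense libraries 1 to 3. The lowest sense library was thus well above the highest antisense library. The log2 fold change was -1.39 (SE 0.108; edgeR adjusted p = 2.86e-07). Among the 718 protein-coding genes called lower, Mbnl3 ranked 26 from the lowest log2 fold change. Mbnl3 passed under each of 15 alternative settings, with log2 fold changes from -1.46 to -1.31 under the 14 that scale for composition and -0.70 on library totals alone.

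The other muscleblind genes did not share this difference. Mbnl1, the founding member of the family and a main regulator of developmental exon switches in muscle and brain, stood at 114, 113 and 111 CPM in antisense against 113, 124 and 118 CPM in sense. Mbnl2, which has the main muscleblind role in brain, stood at 183, 184 and 192 CPM in antisense against 195, 196 and 183 CPM in sense. Both genes overlapped between the groups. The log2 fold changes were -0.07 (SE 0.0860; edgeR adjusted p = 0.601) for Mbnl1 and -0.04 (SE 0.0852; adjusted p = 0.807) for Mbnl2, and the sign of Mbnl2 turned with TMM computed on protein-coding genes. The share of Mbnl3 in the counts of the 3 muscleblind genes needs no scaling between libraries. In antisense libraries Mbnl3 made up 8.77% (95% Clopper-Pearson interval 7.69% to 9.96%), 8.26% (7.21% to 9.40%) and 9.38% (8.26% to 10.6%) of muscleblind counts. In sense libraries it made up 18.6% (17.0% to 20.2%), 20.8% (19.3% to 22.4%) and 19.4% (17.8% to 21.1%). These intervals hold the counting error of each library alone and no spread between libraries. The labels name no molecular identifiers that would tell copies of a molecule apart, so the intervals may be too narrow. Mean shares were 8.80% ± 0.559 and 19.6% ± 1.14 (SD, n = 3 each). An exact two-sided permutation test gave p = 0.1, the smallest that 3 against 3 libraries allow.

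**Figure D2:**
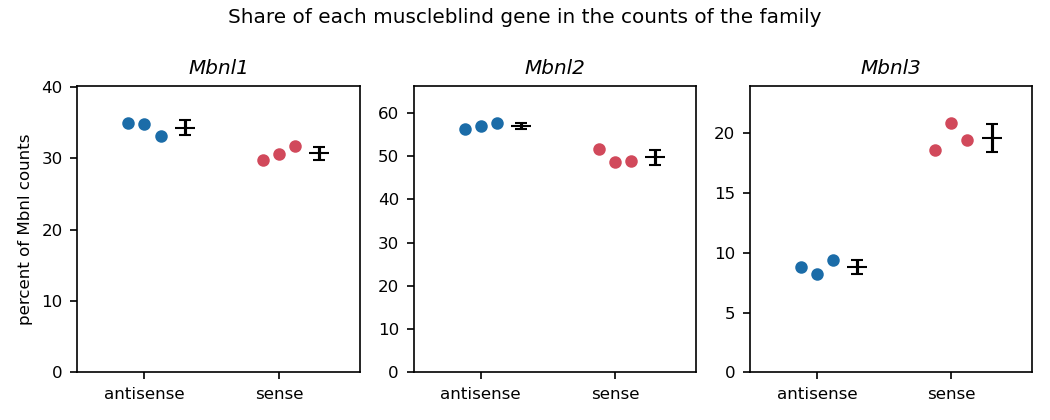
Percent of the counts of the 3 muscleblind genes that belonged to each of them, per library (points), with mean and SD at the right of each group. Mbnl3 took 8.80% on average in antisense and 19.6% in sense, and its groups do not overlap.

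Among the Srsf genes, which encode the classical SR proteins, Srsf4 was lower in antisense and 10 did not pass. This was 1 of 11 genes (9.09%), against 4.35% lower among all tested genes. Srsf4, the SR protein with one of the longest arginine-serine domains of the family, stood at 23.4, 22.1 and 23.8 CPM in antisense against 33.5, 29.0 and 30.1 CPM in sense. All 3 antisense libraries lay below the sense libraries. The log2 fold change was -0.42 (SE 0.115; edgeR adjusted p = 0.0148), which missed the threshold without sense replicate 1 (adjusted p = 0.0605). Within the counts of the 11 Srsf genes, Srsf4 took 2.43% ± 0.294 in antisense and 2.92% ± 0.194 in sense (SD, n = 3 each), again without overlap.

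All 11 Srsf genes had negative log2 fold changes on the TMM scale, from -0.42 to -0.05, with a median of -0.19. On library totals alone the Srsf genes that were looked up (Srsf3, Srsf4, Srsf5, Srsf7, Srsf9 and Srsf12) all had positive ones. Srsf5, an SR protein gene responsive to insulin and glucocorticoids in other tissues, stood at 239, 262 and 204 CPM in antisense against 277, 240 and 287 CPM in sense. Its antisense replicate 2 lay above sense replicate 2, so the groups overlapped (log2 fold change -0.19, SE 0.108; edgeR adjusted p = 0.240). Srsf3, the smallest SR protein, which also links splicing to mRNA export, stood at 142, 150 and 150 CPM in antisense against 150, 163 and 154 CPM in sense. Its highest antisense library lay just above its lowest sense library (log2 fold change -0.08, SE 0.0859; edgeR adjusted p = 0.571). Srsf7, a close relative of Srsf3, had the smallest difference of the family at -0.05 (SE 0.124), and turned to 0.080 without antisense replicate 3. Srsf12, with the fewest counts of the Srsf genes, stood at 3.67 ± 0.932 CPM in antisense against 4.61 ± 0.452 CPM in sense (SD, n = 3 each), and its SE of 0.279 was the widest of the family.

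The Srrm genes encode proteins rich in arginine and serine that lack the usual SR domain plan. Of the 4 genes, 1 passed, as lower (25%, against 4.35% of all tested genes), and a single call is no result about the family. Srrm2, a core scaffold of nuclear speckles, stood at 515, 498 and 455 CPM in antisense against 651, 541 and 664 CPM in sense. The groups did not overlap, although sense replicate 2 lay closer to the antisense libraries than to the other sense libraries. The log2 fold change was -0.34 (SE 0.10; edgeR adjusted p = 0.0236). The share of Srrm2 in the counts of the Srrm genes was 78.5% to 81.9% in antisense and 79.9% to 83.5% in sense, which overlap. Srrm2 missed the threshold when antisense replicate 3 (adjusted p = 0.0711), sense replicate 1 (0.0780) or replicate 3 (0.116) was left out, and at a minimum count of 50 (0.0586). Srrm1, a splicing coactivator that bridges SR proteins and the spliceosome, stood at 82.7, 99.8 and 93.1 CPM in antisense against 105, 101 and 98.0 CPM in sense, with overlap between the groups (log2 fold change -0.14, SE 0.0951; edgeR adjusted p = 0.320). Srrm4, the neuronal activator of microexons, stood at 14.2, 15.3 and 17.4 CPM in antisense against 16.8, 18.2 and 15.8 CPM in sense. Its groups also overlapped (log2 fold change -0.12, SE 0.145; edgeR adjusted p = 0.633).

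Ptbp1 was lower in antisense while Ptbp2 and Ptbp3 did not pass (1 of 3 lower, 33.3%, against 4.35% of all tested genes). Ptbp1, the repressor of neuronal exons in glia, progenitors and other non-neuronal cells, stood at 48.5, 45.3 and 52.5 CPM in antisense against 58.2, 58.9 and 63.7 CPM in sense. The groups did not overlap (log2 fold change -0.30, SE 0.0970; edgeR adjusted p = 0.0344). The call was lost when antisense replicate 1 (adjusted p = 0.101), replicate 2 (0.105) or sense replicate 3 (0.136) was left out. It was also lost with DESeq2 (0.0733), with TMM computed on protein-coding genes (0.0855) and at a minimum count of 50 (0.0796). Ptbp2, the paralog that takes over in developing neurons, stood at 120, 134 and 113 CPM in antisense against 123, 120 and 119 CPM in sense. Its antisense libraries spanned all 3 sense libraries (log2 fold change 0.01, SE 0.0918; edgeR adjusted p = 0.942). The share of Ptbp1 in the counts of the 3 Ptbp genes was 22.7% to 28.9% in antisense and 27.9% to 30.6% in sense, which overlap. That of Ptbp2 was 61.6% to 66.8% in antisense and 57.4% to 59.8% in sense, which do not overlap. The difference between Ptbp1 and Ptbp2 was not tested. Of 8 astrocyte markers, 1 (Aldh1l1) was lower in antisense and none was higher, with a median log2 fold change of -0.23. Median log2 fold changes were -0.35 for 12 neuron markers (Syn1 lower), -0.31 for 8 vascular and fibroblast markers (Col4a1 and Fn1 lower) and -0.23 for 8 oligodendrocyte lineage markers (none called). Of 5 microglia markers tested, Itgam was lower and P2ry12 and Trem2 were higher. The summed level of all 8 listed microglia markers was 28.4 to 29.2 CPM in antisense and 18.5 to 21.2 CPM in sense. Among all tested genes 4.35% were lower and 18.2% higher. The erythroid marker Alas2 was higher and Hbb-bt was at 0. The part of these markers in the Ptbp1 result was not tested.

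Puf60, which encodes a poly-U binding splicing factor that acts with U2AF at the 3′ splice site, stood at 30.6, 30.6 and 35.1 CPM in antisense against 45.4, 37.6 and 39.4 CPM in sense. The groups did not overlap, with a gap of a few CPM (log2 fold change -0.35, SE 0.114; edgeR adjusted p = 0.0402). Of the 5 calls this one was lost most often. It missed the threshold when antisense replicate 1 (adjusted p = 0.135), replicate 2 (0.102), sense replicate 1 (0.146) or replicate 3 (0.0738) was left out. It also missed it with DESeq2 (0.0838), limma voom (0.0520), TMM on protein-coding genes (0.0835) and a minimum count of 50 (0.0879).

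**Figure D3:**
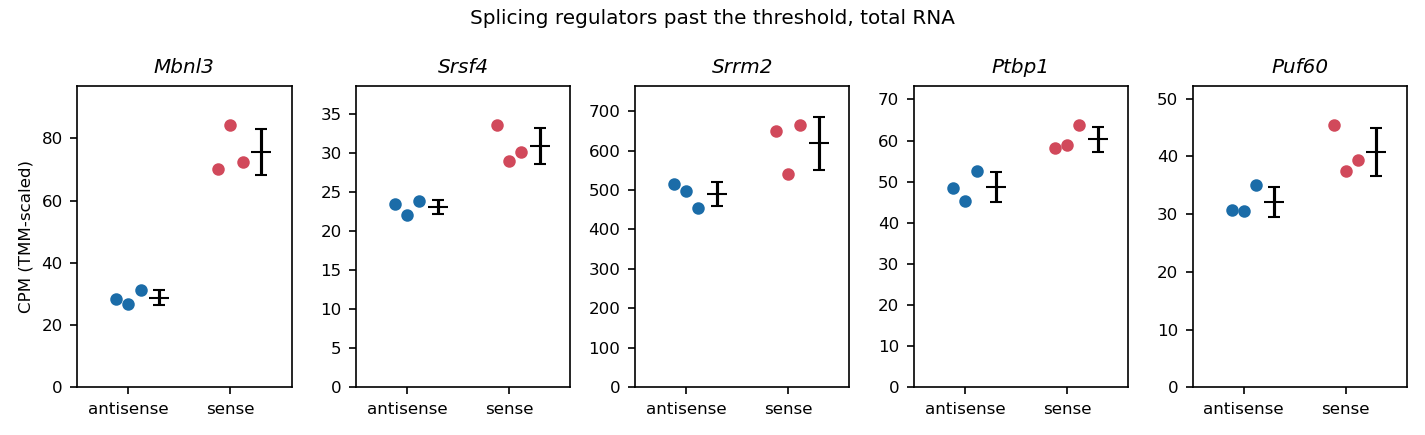
CPM on the TMM scale in each library for the 5 genes past the threshold (points), with mean and SD at the right of each group and each panel on its own axis from 0. Mbnl3 differs 2.62-fold, the other genes 1.24-fold to 1.34-fold, and in each the sense libraries lie above the antisense libraries. On library totals alone Srsf4, Srrm2, Ptbp1 and Puf60 turn to positive log2 fold changes, antisense minus sense.

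None of the 20 hnRNP genes passed in edgeR, and 3 (15.0%) had an unadjusted p below 0.05, against 32.9% of all tested genes. Their log2 fold changes ran from -0.32 to 0.14 with a median of -0.13, and 18 of 20 were negative on the TMM scale. Hnrnpu, which encodes a large nuclear hnRNP also known as scaffold attachment factor A, stood at 357, 403 and 314 CPM in antisense against 386, 358 and 383 CPM in sense (log2 fold change -0.07, SE 0.101; edgeR adjusted p = 0.684). Hnrnpa2b1, which encodes the hnRNP that binds RNA trafficking signals of dendritic mRNAs, stood at 382, 396 and 281 CPM in antisense against 394, 356 and 366 CPM in sense (log2 fold change -0.08, SE 0.118; edgeR adjusted p = 0.703). In both genes antisense replicate 3 was the lowest library and antisense replicate 2 the highest, so the sense libraries lay inside the antisense range. Without antisense replicate 3 the log2 fold changes turned to 0.013 for Hnrnpu and 0.059 for Hnrnpa2b1. On library totals alone both had log2 fold changes of 0.64.

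The ends of the hnRNP range were held by relatives, Hnrnph2 and Hnrnph3, which belong to the hnRNP H/F group that binds G-rich sequences. Hnrnph2 stood at 19.5, 24.0 and 17.6 CPM in antisense against 26.6, 24.0 and 25.5 CPM in sense. Antisense replicate 2 lay just above sense replicate 2, so the groups touched (log2 fold change -0.32, SE 0.137; edgeR adjusted p = 0.122). Hnrnph2 passed without antisense replicate 2 (log2 fold change -0.46, adjusted p = 0.0302). Hnrnph3 stood at 31.2, 31.3 and 24.0 CPM in antisense against 27.7, 23.8 and 26.9 CPM in sense, with wide overlap (log2 fold change 0.14, SE 0.132; edgeR adjusted p = 0.495). Hnrnpul2, singled out after its values were seen, passed in the fit without sense replicate 2 (adjusted p = 0.0291). It stood at 53.4 ± 1.80 CPM in antisense against 64.3 ± 6.61 CPM in sense (SD, n = 3 each; log2 fold change -0.27, edgeR adjusted p = 0.0716 over all libraries).

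Hnrnpk, the poly-C binding hnRNP, spans a miRNA hairpin of the miR-7 family, which allows a reading of its locus in the small RNA libraries. The mature miRNA below is shown because it is the product of a splicing regulator's locus that had small RNA counts. It is given 5′ to 3′ from RefSeq, with the seed (bases 2 to 8) in capitals.
miR-7a-5p: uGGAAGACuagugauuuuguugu
In the Hnrnpk span this sequence lies at chr13:58392841-58392863 on the minus strand (GRCm38.p6), and RefSeq places the same mature sequence at 2 loci, so the counts cannot be assigned to Hnrnpk alone. Small RNA libraries held 248, 213 and 228 estimated counts of miR-7a-5p in antisense and 224, 235 and 256 in sense. Scaled to 1000000 counts in miRNA genes, this was 1034 ± 186 in antisense and 1018 ± 70.4 in sense (SD, n = 3 each), and the groups overlapped. The 3p arm specific to the Hnrnpk locus had 0 counts in all small RNA libraries, as did the mature miRNAs of hairpins within Ptbp1 and Srrm2. In total RNA, Hnrnpk stood at 175 ± 25.8 CPM in antisense against 194 ± 13.0 CPM in sense (SD, n = 3 each), also with overlap (log2 fold change -0.14, SE 0.110; edgeR adjusted p = 0.405).

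No Celf gene passed in edgeR, with 1 of 6 (16.7%) at an unadjusted p below 0.05 against 32.9% of all tested genes. The fitted differences of the family had both signs. Celf3, which encodes a brain-enriched member, had the highest log2 fold change of the 48 genes at 0.24 (SE 0.118; edgeR adjusted p = 0.182). It stood at 41.5, 39.4 and 38.9 CPM in antisense against 37.2, 28.4 and 36.3 CPM in sense, without overlap but with a narrow gap. Celf4, a neuronal member linked to synaptic mRNAs, had the lowest of the Celf family at -0.26 (SE 0.0949; edgeR adjusted p = 0.0656). It stood at 60.1, 62.8 and 53.5 CPM in antisense against 70.7, 68.4 and 72.1 CPM in sense, again without overlap, and passed without antisense replicate 2 (log2 fold change -0.32, adjusted p = 0.0460). In the counts of the 6 Celf genes, Celf3 took 5.67% ± 0.248 in antisense and 4.58% ± 0.700 in sense, and Celf4 8.32% ± 0.260 and 9.49% ± 0.360 (SD, n = 3 each). Those shares do not depend on the scaling. Celf1, which opposes Mbnl1 on many exons, and Celf2, its paralog, each differed by less than 0.1 on the log2 scale. Celf2 stood at 469, 474 and 427 CPM in antisense against 465, 507 and 451 CPM in sense, and Celf1 at 122, 123 and 106 CPM and at 130, 116 and 128 CPM.

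The order of the antisense libraries was uneven across the splicing regulators. Antisense replicate 3 was the lowest of the 6 libraries for 27 of 48 members (56.3%), against 19.0% of all tested genes and 23.6% of protein-coding genes. It was the highest antisense library for 10 of 48 (20.8%), against 41.6% of all tested genes and 38.2% of protein-coding genes. It was the lowest of the 6 for 13 of 20 hnRNP genes and 7 of 11 Srsf genes. Antisense replicate 2 was the highest antisense library for 27 of 48 members (56.3%), against 30.6% of all tested genes and 31.9% of protein-coding genes. Hnrnph1 shows the spread, at 202, 235 and 150 CPM in antisense against 207, 196 and 211 CPM in sense (chosen after its values were seen). The standard deviation over the mean was 22.0% in antisense and 3.76% in sense for this gene. Over the set its median was 8.83% in antisense and 5.92% in sense, below the medians of 12.8% and 13.9% over all tested genes and of 11.4% and 11.9% over protein-coding genes. These backgrounds were not matched to the set for count level, so the lower spread is not shown to be particular to the set. Summed over the 48 genes, the level was 5284, 5512 and 4759 CPM in antisense against 5848, 5535 and 5763 CPM in sense. The summed level of antisense replicate 3 was below that of every other library, and the other antisense libraries were also below the sense libraries.

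**Figure D4:**
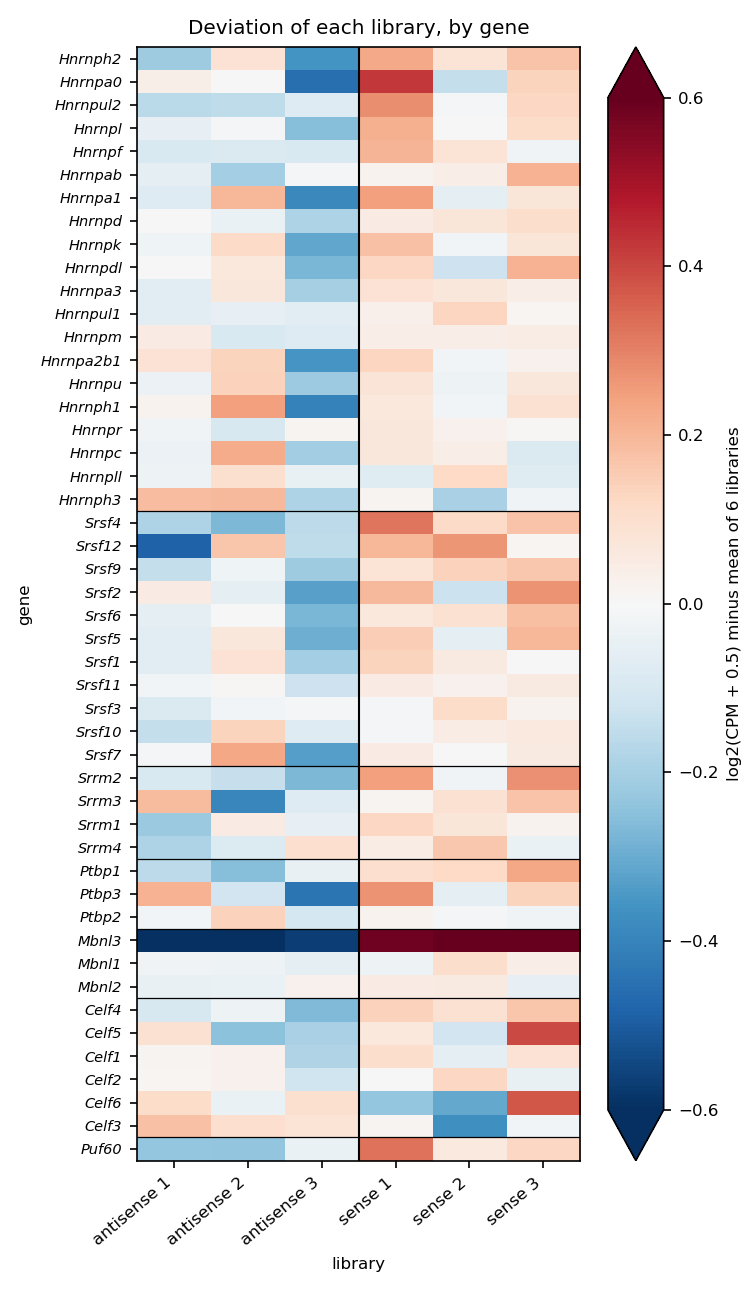
Deviation of each library from the mean of 6 libraries, as log2(CPM + 0.5), for each of the 48 genes (rows, grouped by family) and each library (columns). Mbnl3 exceeds the colour scale in both groups, and antisense replicate 3 is the lowest library for 27 genes.

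Several genes that overlap a splicing regulator in the genome differed far more than the regulator itself. This comparison was made after the data were seen. By RefSeq spans, 19 of 48 members overlap another gene, and 22 such partners of 17 members have a row in the total RNA table. Of 18 partners tested, 10 were higher in antisense in edgeR, none was lower and 8 did not pass. Among all tested genes 3658 of 20049 (18.2%) were higher, and among protein-coding ones 1452 of 15030 (9.66%). The share among the remaining genes was therefore well above 18.2%, which is too low a background for the noncoding partners. The partners include noncoding RNAs and a pseudogene, and the share higher among all tested genes of those classes was not computed. The members in these 18 pairs had log2 fold changes from -0.42 to 0.24. Among the 48 members, 4 of the 19 that overlap a gene were lower (21.1%) and 1 of the 29 that overlap none (3.45%), against 4.35% of all tested genes. Median log2 fold changes of these groups lay close together, at -0.15 with and -0.12 without an overlapping gene. Negative values made up 84.2% and 93.1% of them. The share called lower among all genes that overlap another gene was not computed. Strand is known from RefSeq for both genes of 11 pairs, and in all 11 they lie on opposite strands. Whether counting used strand is not given in the sources used here, so reads of a member and of its partner may not be told apart.

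Srrm4os, a noncoding gene overlapping Srrm4, stood at 7.23, 6.55 and 8.84 CPM in antisense against 0.316, 0.312 and 0.171 CPM in sense, while Srrm4 overlapped between the groups (Srrm4os log2 fold change 4.72, SE 0.404; edgeR adjusted p = 6.87e-07). Gm12992, a noncoding gene on the strand opposite to Srsf4, stood at 16.0, 10.9 and 17.0 CPM in antisense against 1.74, 1.56 and 2.23 CPM in sense, so it was higher where Srsf4 was lower (log2 fold change 2.99, SE 0.268; edgeR adjusted p = 1.04e-06). Gm26679, a noncoding gene opposite to Mbnl2, was at 0 in all 3 sense libraries and at 7.58 CPM on average in antisense, at least 46.9-fold higher against a floor of 3 counts over the sense group. Gpx4-ps1, a pseudogene within Hnrnpll, was also at 0 in sense and at least 20.6-fold higher.

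Of 10 protein-coding partners tested, 4 were higher (40%, against 9.66% of protein-coding genes) and 6 did not pass. Plppr3, a neuronal phospholipid phosphatase-related gene opposite to Ptbp1, stood at 22.0 ± 2.02 CPM in antisense against 11.5 ± 2.20 CPM in sense (SD, n = 3 each; log2 fold change 0.94, edgeR adjusted p = 0.000394). Phykpl, opposite to Hnrnpab, stood at 91.9 ± 11.7 CPM and 32.2 ± 2.15 CPM (SD, n = 3 each; log2 fold change 1.51, edgeR adjusted p = 1.87e-07). Gatc, opposite to Srsf9, differed by 2.01 on the log2 scale (SE 0.280; edgeR adjusted p = 5.42e-05). Hnrnpab and Srsf9 themselves did not pass, at -0.18 and -0.26. Elob, opposite to Srrm2, did not pass (-0.12), nor did Mfsd11, opposite to Srsf2 (-0.26).

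**Figure D5:**
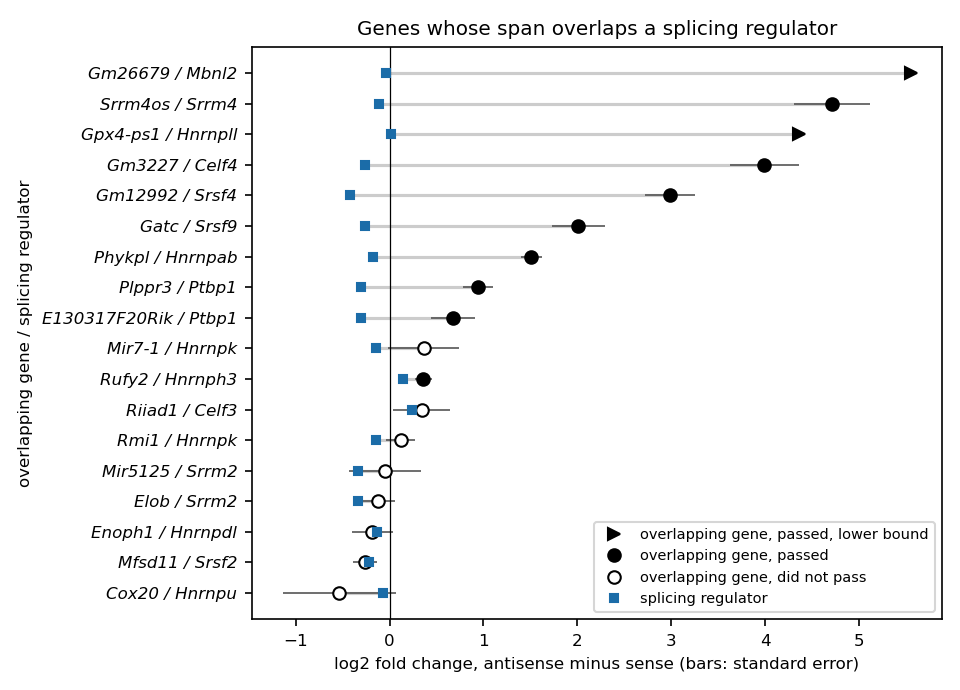
Log2 fold change, antisense minus sense, of 18 genes that overlap a splicing regulator (circles and triangles, with standard errors, triangles being lower bounds for genes at 0 in sense) and of the regulator (squares). In the 10 pairs with a filled symbol the overlapping gene was higher in antisense, up to a bound of 5.55, while no regulator exceeded 0.24.

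The rest of the splicing machinery was read from 4 lists. Of 24 core spliceosome genes tested (Sm, U1, U2AF and SF3 proteins), none passed in edgeR, against 22.6% of all tested genes in either direction. An unadjusted p below 0.05 was found for 4 of them (16.7%, against 32.9% of all tested genes), and the median log2 fold change was -0.17. With limma voom 1 passed, as lower, and with DESeq2 none. Of 20 genes of the tri-snRNP, the Prp19 complex and spliceosomal helicases, 2 were lower (10%, against 4.35% of all tested genes) and 18 did not pass (median -0.14). These were Prpf8, the protein at the catalytic centre of the spliceosome, and Snrnp200, the helicase that unwinds U4 from U6. Prpf8 stood at 227, 257 and 182 CPM in antisense against 375, 256 and 311 CPM in sense (log2 fold change -0.50, SE 0.140; edgeR adjusted p = 0.0163). Snrnp200 stood at 142, 133 and 110 CPM and at 208, 140 and 175 CPM (log2 fold change -0.44, SE 0.134; edgeR adjusted p = 0.0257). In both genes 1 antisense library lay just above the lowest sense library, so the groups overlapped. Without antisense replicate 3 (adjusted p = 0.0594 and 0.0908) or sense replicate 1 (0.0976 and 0.140) neither passed. Snrnp200 also missed the threshold without sense replicate 3 (0.0709) and at a minimum count of 50 (0.0523).

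Of 10 genes of SR protein kinases and transport, 1 was higher (10%, against 18.2% of all tested genes) and 9 did not pass (median -0.10). Srpk3, an SR protein kinase best known from muscle, stood at 17.2, 13.9 and 14.6 CPM in antisense against 5.38, 6.54 and 5.31 CPM in sense (log2 fold change 1.40, SE 0.188; edgeR adjusted p = 3.97e-05). The RefSeq table shows no gene overlapping it. Of 36 other regulators of alternative splicing, 2 were higher, 2 were lower and 32 did not pass (median -0.11). Each direction made up 5.56% of the list, against 18.2% higher and 4.35% lower among all tested genes. Esrp2, an epithelial splicing regulator, stood at 5.39, 5.01 and 8.84 CPM in antisense against 0.316, 0.156 and 0.343 CPM in sense (log2 fold change 4.48, SE 0.471; edgeR adjusted p = 4.45e-06). It overlaps Nfatc3, which had a mean of 71.4 CPM. Khdrbs2, the neuronal STAR protein SLM1, stood at 69.7, 61.6 and 73.8 CPM in antisense against 35.9, 44.4 and 34.9 CPM in sense (log2 fold change 0.83, SE 0.115; edgeR adjusted p = 5.08e-05). Srpk3, Esrp2 and Khdrbs2 did not overlap between the groups. The lower genes, named after their values were seen, were Elavl3 (log2 fold change -0.41) and Sfpq (-0.25). Elavl3 missed the threshold with DESeq2 (adjusted p = 0.0622), at a minimum count of 50 (0.0540), and when antisense replicate 1 (0.0577), replicate 2 (0.0650), sense replicate 1 (0.0826) or replicate 2 (0.0645) was left out. Sfpq missed it whichever library was left out (adjusted p from 0.0610 to 0.119). It also missed it with DESeq2's size factors in edgeR (0.0537), without a filter (0.0574), with Gas5 left out (0.0725), at a minimum count of 50 (0.1001) and with TMM on protein-coding genes (0.122). That list counted 2 calls, both higher, without antisense replicate 1 or without sense replicate 1. The SR kinase list counted 2 calls without antisense replicate 3.

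The authors' deposited table gives its log2 fold changes as sense over antisense, opposite in sign for all 48 members. It has 2 of the 48 at an adjusted p below 0.05, against 16% of its genes with an adjusted p. In the authors' deposited table Mbnl3 has 1.40 on the log2 scale (adjusted p = 4.74e-21) and Srrm2 one of 0.34 (adjusted p = 0.00389). Srsf4 (adjusted p = 0.0640), Ptbp1 (0.0802) and Puf60 (0.108) do not pass in the authors' deposited table, with log2 fold changes of 0.43, 0.31 and 0.35.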

How the data were processed

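Total RNA was measured in 6 libraries (3 antisense, 3 sense). Salmon, DESeq and GRCm38 are named per the submitters' processing notes, with no versions or settings given in the sources used here. The total and small RNA tables deposited by the authors hold estimated counts. The authors' deposited comparison table holds log2 fold changes and p-values and gave the gene classes. Estimated counts were rounded. Genes were kept by filterByExpr (minimum count 10), scaled by TMM and tested with edgeR 4.0.16's quasi-likelihood F test, two-sided, antisense minus sense, Benjamini-Hochberg at 0.05 over all tested genes. The standard error is the log2 fold change over the square root of F. Alternatives used limma 3.58.1, DESeq2 1.42.0 and R 4.3.3. The steps were tested on simulated counts.

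Members and lists were chosen with earlier results of these data known. Named are called members, the 2 members per family with the highest mean CPM, those at the ends of each family's range, and up to 2 called genes per list. Positions and strands came from RefSeq (GRCm38.p6), matched by symbol for all 48 members. Same-numbered libraries did not deviate together (correlations 0.05, -0.06 and -0.01), so replicate numbers were not used as a block. Pathway lists hold no member.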

Additional observations from a re-analysis of the deposited data

How the results depend on the processing

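The number of splicing regulators called was 5, and 2 to 6 when 1 library was left out. It was 3 with DESeq2, 3 with TMM on protein-coding genes, 3 with a replicate block and 2 at a minimum count of 50, all lower in antisense. Library totals alone gave 29, of which 28 were higher in antisense, against 63.9% higher among all genes. With library totals alone the median of the set was 0.58. On the TMM scale it was -0.20 to -0.10 when 1 library was left out. Library totals alone also gave 12 core spliceosome genes, 15 tri-snRNP and helicase genes, 8 SR kinase and transport genes and 24 other regulators. Limma voom gave 1 core spliceosome gene. A minimum count of 50 gave 1 tri-snRNP and helicase gene and 1 other regulator. Without 1 library these lists gave 0 to 1, 0 to 2, 1 to 2 and 2 to 4 calls. Overlapping genes called numbered 8 to 14 of those tested under all settings, which were applied to them after the data were seen.

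Among the genes named by the stated rule, these log2 fold changes turned positive on library totals alone: Srsf4 0.31, Srrm2 0.39, Ptbp1 0.40, Puf60 0.39, Hnrnpu 0.64, Hnrnpa2b1 0.64, Srsf5 0.53, Srsf3 0.62, Srrm1 0.56, Mbnl2 0.67, Mbnl1 0.62, Celf2 0.64, Celf1 0.63, Hnrnph2 0.40, Srsf7 0.66, Srrm4 0.59, Celf4 0.45, Prpf8 0.25 and Snrnp200 0.31. Gas5 counts are part of those totals, and the median of all genes moved to 0.70. Mbnl2 turned to 0.015 with TMM on protein-coding genes and to 0.00011 at a minimum count of 50. Ptbp2 turned to -0.063 without antisense replicate 2 and to -0.0029 without sense replicate 3, within a range of -0.063 to 0.064 when 1 library was left out. Without antisense replicate 3, Hnrnpu turned to 0.013, Hnrnpa2b1 to 0.059 and Srsf7 to 0.080. Their lowest values with 1 library left out were -0.170, -0.173 and -0.204. The cause was not tested. With the replicate block the calls of Ptbp1 (adjusted p = 0.0527), Puf60 (0.0660) and Sfpq (0.0903) were lost. The labels do not say that the numbers pair the libraries, and only antisense replicate 1 correlated best with its own number among sense libraries. With 20.3 to 4115 counts per member and 3 libraries a group, standard errors of the log2 fold changes ran from 0.0849 to 0.286.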
